A study of Mus musculus with 2 samples.

Results

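The circadian clock genes described here are 10 mouse genes, Clock, Arntl, Per1, Per2, Per3, Cry1, Cry2, Nr1d1, Nr1d2 and Dbp, taken by gene symbol from a table of gene activity in C2C12 myoblasts. All 10 were found, with 13 of the 24165 RefSeq entries and 10 of the 20128 gene symbols in the table. Clock has 3 entries, Per1 has 2, and each of the others has 1. The activities were measured by global run-on sequencing (GRO-seq), an assay in which RNA polymerases already engaged on genes extend their transcripts in isolated nuclei, so that newly made RNA carrying bromouridine can be pulled down and read. C2C12 is an established mouse myoblast line, and 2 replicate libraries (group C2C12 myoblast) were made from untreated cells in serum-containing medium at 80% confluency. The labels give no genotype change, no time of harvest and no synchronisation of the cells.

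Gene activity is the density of sense-strand reads in the gene body, from 1 kb after the transcription start site (TSS) to the transcript end, in reads per kilobase of mappable bases scaled to the total of reads (RPKmM). It is therefore a level per length, and genes of unequal length can be set side by side. The authors pooled the libraries before computing it, so each entry has 1 value, no replicate spread exists, and no difference between genes below was tested. Low activity in bulk nuclei cannot tell fewer transcribing cells apart from fewer polymerases per cell. The label of the cells was checked against marker genes. All 7 myoblast markers were active, with Vim at 146.13, Des at 72.45, Cdh15 at 8.08, Myf5 at 5.03, Myod1 and Myog at 2.39 each and Pax7 lowest at 0.55 RPKmM. Of 6 markers of other cell types, Alb, Ptprc, Epcam and Adipoq were listed as inactive, and Gfap and Pecam1 did not exceed 0.01.

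The mammalian clock is a feedback loop of transcription. CLOCK and the Arntl product BMAL1 form a heterodimer that binds E-boxes and activates the Per, Cry, Nr1d1, Nr1d2 and Dbp genes. PER and CRY proteins return to the nucleus and inhibit this heterodimer, while the nuclear receptors REV-ERBα (Nr1d1) and REV-ERBβ (Nr1d2) compete with ROR receptors at response elements and repress Arntl. DBP activates through D-boxes, for example in Per genes. In a culture that has not been synchronised, the clocks of single cells run out of phase, and a pooled value averages over them.

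E-boxes and D-boxes near the starts of these genes are shown first, because they are the sequences through which the loop acts on its own members. A promoter window from RefSeq (assembly GRCm38.p6), of 250 bases before and 50 after a start, was at hand for 9 of the 10 genes, and not for Per2. Several starts were listed for Clock, Arntl and Per1. Each window was found unchanged in mm9, and its start lay within 159 bases of the start of the GENCODE vM1 gene, except for further starts of Clock (up to 1290 bases after it) and both starts of Per1 (3732 and 4935 bases after it). The windows were searched on both strands for the E-box CACGTG, the D-box TTATGTAA or TTACGTAA, the ROR element core TAGGTCA or TGGGTCA, and the cAMP response element TGACGTCA. These motifs do not overlap one another in the sequences below, which are printed 5′ to 3′ on the strand of the gene with the motif in capitals.
Per1, E-box starting at position -166 from the TSS, chr11:69098753-69098818, plus strand: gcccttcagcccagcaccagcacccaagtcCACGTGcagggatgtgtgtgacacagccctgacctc
Cry1, E-box starting at -60, chr10:85185079-85185144, minus strand: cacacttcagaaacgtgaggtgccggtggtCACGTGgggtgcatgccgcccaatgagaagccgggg
Per3, a pair of D-boxes, starting at -205 and -158, chr4:151044786-151044900, minus strand: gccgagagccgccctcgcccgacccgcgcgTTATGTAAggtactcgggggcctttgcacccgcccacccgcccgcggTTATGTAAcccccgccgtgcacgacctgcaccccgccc
Arntl, ROR element core at base 31 after one of its starts, chr7:113207530-113207558, plus strand: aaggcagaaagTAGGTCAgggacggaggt

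The E-box was found in the windows of 2 of these 9 genes, Per1 and Cry1, while 8.09% of all 27025 genes with a window and 11.4% of the active ones hold it. The D-box was found for Per3 only, and 1.23% of all genes hold it. The ROR element core was found for Arntl only, against 7.35% of all genes. No cAMP response element was found in the member windows, and 2.03% of all genes have one. A match is a description of the letters and was not tested for binding. With 1 window per gene, the first listed, the median content of G and C was 65.7% over the 9 clock genes and 60.7% over active genes, and Nr1d1 (56.3%) and Dbp (60.3%) lay below the latter. All 13 windows of clock genes ranged from 47 to 76.7%.

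All 10 genes, and all 13 entries, were called active by the authors, whose call compares the read density with that of gene deserts. In the whole table, 70.2% of entries and 68.7% of symbols carry this call. The highest entry of each gene was used to rank it among the 13822 active symbols. The clock genes ranged from 0.26 RPKmM for Cry1 to 4.15 for Clock, a ratio of 16.0. Their median was 0.655, and that of all active symbols was 0.87, with quartiles of 0.22 and 2. Thus 8 of the 10 lay within the quartiles of all active genes, Clock and Nr1d2 lay above them, and none lay below. Among the symbols at 0.1 or more, however, 5 lay below the lower quartile (Cry1, Per2, Cry2, Arntl and Dbp), as the many low genes are then left out. Of the 10 genes, 4 (40%) reached an activity of 1, a share near the 46.1% of all active symbols. The median of the 10 was lower than that of all active symbols (ratio 0.753), but the ratio was 1.22 for geometric means (pseudocount 0.01) and 1.28 over all active entries, so its direction depends on the summary. Per gene, 4 lay above the median active symbol (Clock, Nr1d2, Per1 and Per3) and 6 below it.

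**Figure D1:**
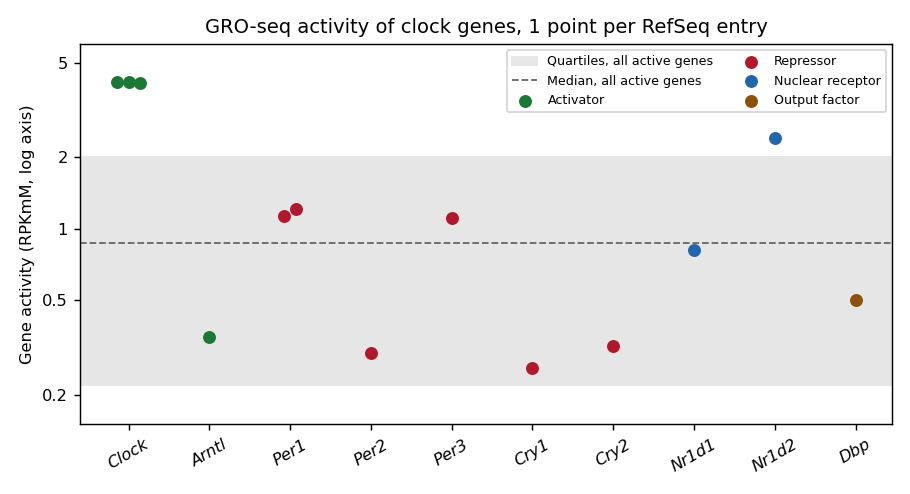
Gene activity of the 10 clock genes in RPKmM on a log axis, 1 point per RefSeq entry of the pooled libraries, coloured by role; the grey band spans the quartiles of all active genes (0.22 to 2) and the dashed line is their median (0.87). Clock and Nr1d2 lie above the band, and Arntl, Per2, Cry1 and Cry2 lie in its lower part between 0.26 and 0.35.

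Among 5 pairs of partners and paralogues within the set, the genes of the activating heterodimer differed most. Clock, which encodes a bHLH-PAS factor, had the highest activity of the set in each of its entries, 4.15 RPKmM for NM_001305222, 4.14 for NM_007715 and 4.12 for NM_001289826. These entries overlap and share most of their reads, so they are not repeated measurements. Clock lay above 90.1% of active symbols. Arntl (NM_001243048), which encodes its partner BMAL1, was listed at 0.35, above 30.5% of active symbols, or 14.3% of those at 0.1 or more. The ratio of Clock to Arntl was 11.9, and rounding of the table to 2 decimals allows 11.7 to 12.04. The listed activities of these partners were thus far from equal in this culture, and the difference was not tested. Arntl2, a paralogue of Arntl, was listed at 0.32, close to Arntl itself. Npas2, a paralogue of Clock that can replace it in the heterodimer, was listed at 0.05, and the ratio of Clock to Npas2 was 83.0 (75.4 to 92.3 from rounding).

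The repressors of the heterodimer fell into an upper and a lower group. Per1 was listed at 1.21 RPKmM for NM_001159367 and at 1.13 for NM_011065, and Per3 (NM_001289877) at 1.11. Per2 (NM_011066) was listed at 0.30, Cry2 (NM_009963) at 0.32 and Cry1 (NM_007771) at 0.26. Hence Per1 and Per3 lay just above the median active gene, above 59.4% and 56.9% of active symbols. Per2, Cry2 and Cry1 lay above 28.2%, 29.2% and 26.7%, or above 11.5%, 12.7% and 9.62% of the symbols at 0.1 or more. The ratio of Per1 to Per2 was 4.03 (3.95 to 4.12 from rounding), and that of Per3 to Per2 was 3.70. The cryptochromes differed little, with a ratio of Cry2 to Cry1 of 1.23 (1.19 to 1.27 from rounding). Summed over paralogues, the Per genes had 2.62 RPKmM and the Cry genes 0.58, a ratio of 4.52. Among the 4 genes from 0.26 to 0.35 (Cry1, Per2, Cry2 and Arntl) each step in the order was between 0.02 and 0.04 RPKmM. Without a value per library, that order cannot be taken as established, and neither can the order of Per3 and Per1.

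The REV-ERB genes were among the more active members. Nr1d2 (NM_011584), which encodes REV-ERBβ, had the second highest activity, 2.41 RPKmM, above 79.9% of active symbols. Nr1d1 (NM_145434), which encodes REV-ERBα, was listed at 0.81, above 47.9%. The ratio of Nr1d2 to Nr1d1 was 2.98 (2.95 to 3 from rounding). Genes of ROR receptors, which act at the same elements and activate Arntl, were uneven as well. Rorb was listed at 1.44 in its higher entry and 0.80 in the other. Rora was highest at 0.11. Thus Nr1d2 lay above Nr1d1 and Rorb above Rora, and Arntl itself, at 0.35, lay below Nr1d2, Nr1d1 and Rorb and above Rora.

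Dbp (NM_016974), a PAR bZIP factor and a direct output of the heterodimer, was listed at 0.50 RPKmM, above 36.5% of active symbols, or 21.7% of those at 0.1 or more. The other PAR bZIP genes lay on either side of it. Tef was listed at 3.47 and 2.17 in its entries, and the ratio of the higher to Dbp was 6.94. Hlf was listed at 0.01, the smallest step of the table. Nfil3, a repressor at D-boxes, was listed at 1.34. Among the genes whose products act at D-boxes, Tef was thus the most active and Hlf the least.

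**Figure D2:**
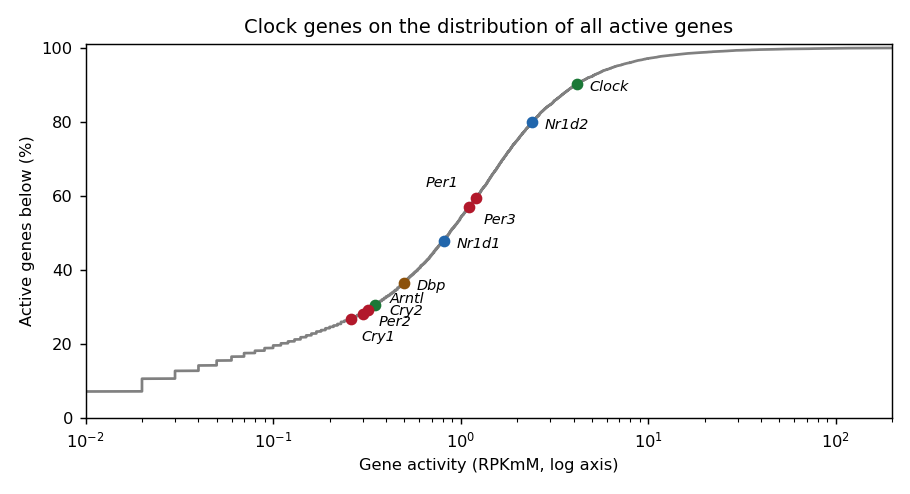
Share of active genes (%) below a given gene activity (RPKmM, log axis) for the 13822 active symbols, with the 10 clock genes marked at the activity of their highest entry. Cry1, Per2, Cry2 and Arntl lie together between 26.7% and 30.5%, and Clock lies at 90.1%.

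The read support of these values differs more than the values do. The depth of the libraries is not in the table. Activity times the length of the gene body gives reads per 1000000 pooled reads (RPM), if all bases are mappable and the body is that of the GENCODE vM1 gene. By this product Clock had 385 RPM, Nr1d2 82.1, Per3 44.4 and Arntl 37.0. Per1 had 16.6 from the GENCODE start, or 12.1 from its first RefSeq start. The others had 13.6 (Cry1), 12.7 (Per2), 9.41 (Cry2), 5.19 (Nr1d1) and 2.03 (Dbp). Clock supplied 63.3% of the sum over the 10 genes. By this product the values of the short genes Nr1d1 and Dbp rest on the fewest reads of the set. Arntl is an example of the reverse, as its low activity is spread over a long gene and rests on more reads than the higher activity of Per1 from either start.

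The clock genes lie on 8 chromosomes of mm9. Clock (chr5:76639992-76733817, minus strand) spans 93.8 kb, and Arntl (chr7:120350979-120457636, plus strand) spans 107 kb. The Per genes are Per1 (chr11:68908719-68923462, plus strand), Per2 (chr1:93312561-93355907, minus strand) and Per3 (chr4:150377761-150418774, minus strand). The cryptochrome genes are Cry1 (chr10:84594447-84647799) and Cry2 (chr2:92243803-92274200), both on the minus strand. On the minus strand are also Nr1d1 (chr11:98629246-98636647) and Nr1d2 (chr14:19036568-19071641), and Dbp is on the plus strand (chr7:52960458-52965525). Dbp is the shortest, at 5.07 kb.

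Of the 20 nearest genes on either side, among symbols placed in the annotation, 16 (80.0%) were active, against 68.7% of all symbols, and 11 of these had a higher activity than the clock gene they flank. Clock was the exception, as it alone exceeded both neighbours. Beyond its 5′ end Pdcl2 was inactive, and beyond its 3′ end Tmem165, on the opposite strand, was listed at 1.84. Per2 and Cry2 lay below both of their neighbours. Ilkap, downstream of Per2, was listed at 3.55 and Traf3ip1 at 0.99. Beside Cry2, at 0.32, Slc35c1 was listed at 0.36 and Mapk8ip1 at 0.57. Without a value per library, the order of Cry2 and Slc35c1 cannot be taken as established. The 5′ neighbour of Arntl, Rassf10, lies 252 kb away and was inactive, while Btbd10 ends 1.504 kb beyond the 3′ end of Arntl on the opposite strand and was listed at 1.58. Car11 lies 0.406 kb before Dbp on the same strand and was listed at 0.09, against 0.50 for Dbp.

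**Figure D3:**
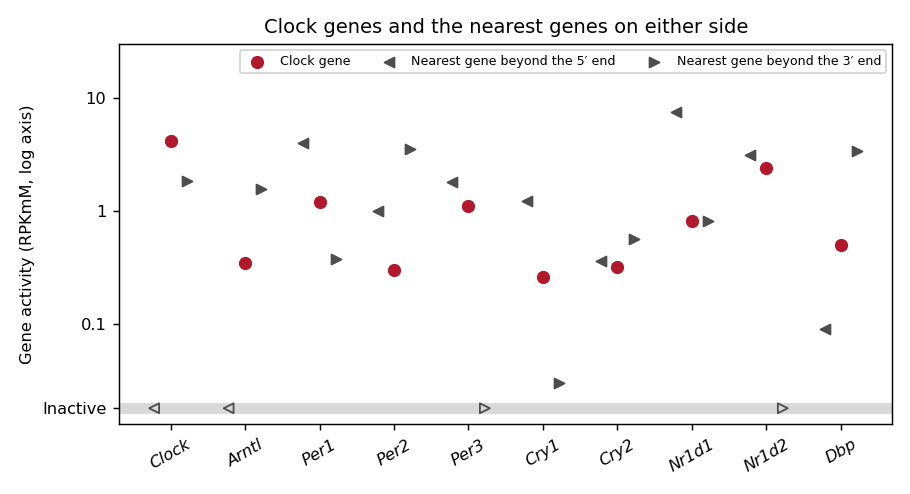
Gene activity (RPKmM, log axis) of each clock gene (circle) and of the nearest gene in the table beyond its 5′ end (left triangle) and 3′ end (right triangle); open triangles on the grey line are genes listed as inactive, which have no value. Clock lies above both neighbours, and Per2 and Cry2 lie below both.

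In 3 cases a gene of the table overlaps a clock gene on the opposite strand, where the strand of the reads separates them. Nr1d1 and Thra, which encodes thyroid hormone receptor alpha, converge and share 1.07 kb at their 3′ ends. Thra was listed at 1.13 RPKmM and Nr1d1 at 0.81. Dbp and Sphk2 share 0.689 kb at their 3′ ends, with Sphk2 at 0.81 and Dbp at 0.50. The noncoding entry D930015M05Rik overlaps 23.4 kb of Cry2 and was listed as inactive. Cry2 spans 30.4 kb, and no other symbol placed in the annotation overlaps it.

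The whole genes were searched in the mm9 sequence for E-boxes, since several lie within introns. The 9 genes other than Per2 hold 61, of which 56 lie in introns of coding transcripts and 5 in exons. The E-box printed above for Per1 is among its 4, since the GENCODE gene begins before the RefSeq starts. Those of Per1 at 2457, 3203 and 3566 bases after the GENCODE start lie before its RefSeq starts, at 3732 and 4935 bases. Only the E-box of Per1 at 5746 bases lies after both. Per 10 kb the median over 12379 active genes was 1.28, and the 90th percentile was 2.92. Nr1d1 had 5.40, Dbp 3.95, Per3 3.41, Per1 2.71 and Cry2 2.30, all above that median. The value of Per1 holds for the GENCODE span only, and its density from a RefSeq start was not computed. Arntl had 1.22, Clock 0.959, Cry1 0.937 and Nr1d2 0.855. The densest genes, Nr1d1 and Dbp, lay above 98.5% and 95.8% of active genes. They are also the shortest, with 4 and 2 E-boxes, and their G and C contents were 54.4% and 56.2%, against 40.03% for Clock. The part of base composition in these densities was not tested. Density did not follow the order of the activities, as Clock, the most active gene of the set, and Cry1, among the least active, had similar values.

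All 4 E-boxes of Nr1d1, all 3 of Nr1d2, both of Dbp and 3 of the 4 of Per1 lie within 5 kb of the annotated GENCODE start. These 3 of Per1 lie before both of its RefSeq starts. As Dbp spans 5068 bases and Nr1d1 7402, their lengths leave little room for another position. The E-boxes of the REV-ERB genes and Dbp, all intronic in coding transcripts, are printed below with coordinates of mm9 and in the direction of transcription, because these genes had none in the promoter windows and are known targets of CLOCK and BMAL1. The E-box is in capitals. The E-boxes of Dbp lie in an exon of another transcript of that gene.
Nr1d1, 1174 bases after the start, chr11:98635458-98635483, minus strand: gagccgggccCACGTGctgcatttgt
Nr1d1, a pair, the first 1454 bases after the start, chr11:98635163-98635203, minus strand: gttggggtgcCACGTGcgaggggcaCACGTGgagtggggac
Nr1d1, 2290 bases after the start, chr11:98634342-98634367, minus strand: tcacctcacaCACGTGtctgaggatc
Nr1d2, 449 bases after the start, chr14:19071177-19071202, minus strand: ccgcactggcCACGTGcacggtgtgt
Nr1d2, 552 bases after the start, chr14:19071074-19071099, minus strand: cgggcggagaCACGTGaggccgcggg
Nr1d2, 597 bases after the start, chr14:19071029-19071054, minus strand: gccggaggaaCACGTGggggcggtgc
Dbp, 2624 bases after the start, chr7:52963072-52963097, plus strand: attccctcgcCACGTGagtccgcctt
Dbp, 2737 bases after the start, chr7:52963185-52963210, plus strand: ctgtaggccaCACGTGatgcggccct

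**Figure D4:**
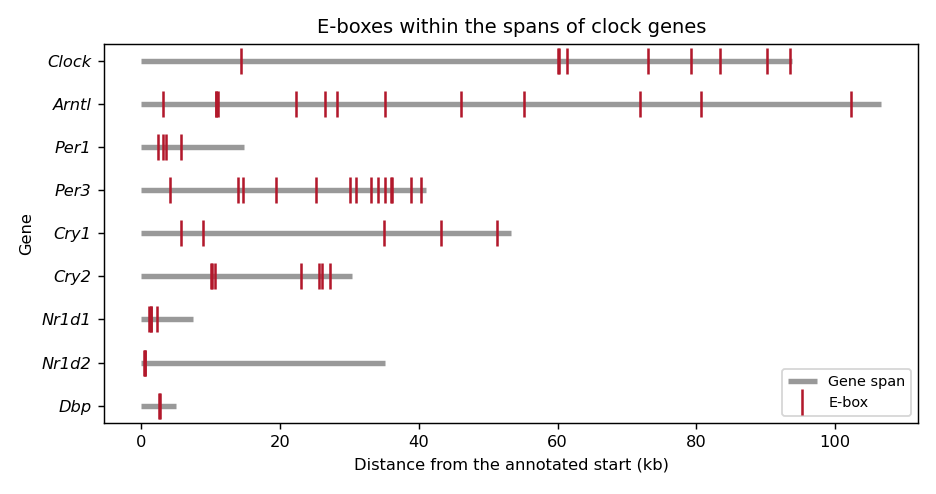
E-boxes (CACGTG, red marks) along the annotated spans (grey bars) of 9 clock genes, in kb from the annotated start on mm9. The 3 E-boxes of Nr1d2, a gene of 35.1 kb, lie within 5 kb of the start, as do 3 of the 4 of Per1, and the first E-box of Clock, a gene of 93.8 kb, lies 14388 bases after its start. The 3 of Per1 within 5 kb of the annotated start lie before both of its RefSeq starts.

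Within 1 kb on either side of the annotated mm9 start, 4 of the 9 genes had an E-box, Nr1d2 with 3, Per1 with 2, and Cry1 and Nr1d1 with 1 each, and 32.1% of active genes had at least 1. D-boxes were found for 3 genes, Per3 with 3 and Per1 and Nr1d2 with 1 each, against 6.10% of active genes. Around the first RefSeq start, Per1 also had 2 E-boxes but no D-box. The ROR element core was found for Dbp (3), Clock (1) and Arntl (1), against 34.0% of active genes. No cAMP response element was found in these windows either, and 5.12% of active genes had one. With 9 genes these shares are descriptions only. The window was widened after the results of the shorter one had been seen.

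The 10 clock genes were then set beside 40 further genes of the pathway, grouped by what their products do. Of these, 39 were active, the exception being Klf15, while 68.7% of all symbols in the table were. Of the 39, 27 were listed at 1 RPKmM or more, against 46.1% of active symbols. The median over the active ones was 1.48, and that of all active symbols was 0.87. The 8 genes of kinases and phosphatases that act on clock proteins had the highest median of the groups, 3.47. Csnk1d, which encodes the casein kinase 1δ that phosphorylates PER proteins, was listed at 4.42 and Csnk1e, its paralogue, at 1.27. Prkaa2, a catalytic subunit of AMP-activated kinase, was lowest at 0.14, and its paralogue Prkaa1 was listed at 2.74. All 9 coactivator and corepressor genes lay at 1.08 or above, with a median of 2.27. Sfpq and Nono, which encode RNA-binding partners of PER proteins, were highest at 52.43 and 8.38, and Hdac3, a deacetylase recruited by the REV-ERB receptors, was lowest at 1.08.

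The 4 genes of clock protein turnover ranged widely. Fbxl21, whose product binds CRY proteins, was lowest at 0.03. Fbxw11 was highest at 2.65 and Btrc was listed at 0.84, and both encode β-TrCP proteins that bind phosphorylated PER. The 9 partners and paralogues had a median of 0.86 and a wide range, from 0.04 for Ciart to 4.45 for Bhlhe41. Bhlhe41 and Bhlhe40 encode DEC repressors that compete at E-boxes, and Bhlhe40 was listed at 1.02. Ciart encodes a repressor of the heterodimer. Among the 7 output genes, Cdkn1a was highest at 3.92, Wee1, a kinase gene driven through E-boxes, was listed at 1.48 and Nampt, which encodes an enzyme of NAD synthesis, at 1.13. Ppara and Hsd11b1 were listed at 0.02 each. In the pairs of Clock and Npas2 and of Tef and Hlf, a gene at 1 or above stood beside a paralogue at 0.05 or below.

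**Figure D5:**
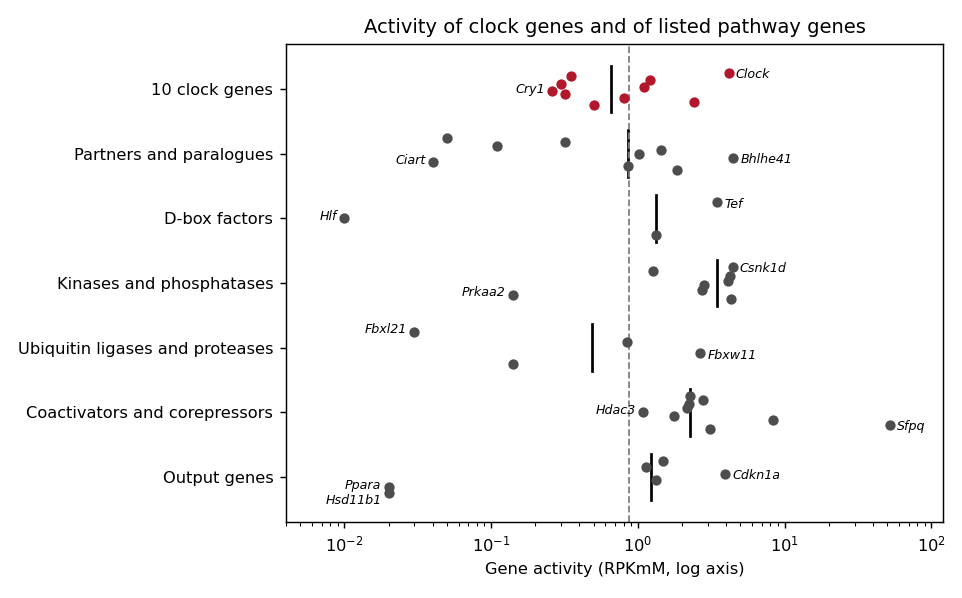
Gene activity (RPKmM, log axis) of the 10 clock genes (red) and of the active genes in 6 further lists (grey), 1 point per gene at its highest entry; the short vertical lines are the medians of each list, the dashed line is the median of all active genes, and the highest and lowest gene of each list are named. The clock genes have a median of 0.655, while kinases and phosphatases have 3.47 and coactivators and corepressors 2.27.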

How the data were processed

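The authors deposited 1 table of gene activity in RPKmM, an RPKM over mappable bases, for RefSeq entries of chromosomes 1 to 19 and X of at least 2 kb. Per the labels and the methods, reads of 2 libraries were mapped to mm9 with Bowtie2 (base calling used CASAVA 1.8), reads that failed were trimmed and remapped, uniquely mapped reads were kept, reads at rRNA and tRNA repeats were discarded, and the libraries were pooled. Entries that did not exceed gene deserts hold the word Inactive (7208 cells) and have no value. Values are rounded to 2 decimals. Pooling hides library differences, and removed repeats and unmappable bases can leave parts of a gene uncounted. The table gives neither read counts nor mappable lengths of the entries, so no counting interval of an activity was computed, although the study states a pooled read total.

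Entries were selected by symbol, and ranks used the highest active entry per symbol. The members and gene lists were chosen with earlier results of these data known. Named genes are the members, their nearest and overlapping genes, the marker genes, and, from the fixed lists, the highest, lowest and inactive genes. Further genes of these lists (Npas2, Arntl2, Rora, Rorb, Nfil3, Bhlhe40, Csnk1e, Prkaa1, Nono, Btrc, Wee1 and Nampt) are named beside a member or paralogue and were picked with their values in view. A pair of genes first listed is not reported here. Spans came from GENCODE vM1 (mm9), in which 17578 of 20128 symbols were found, and 17421 at a single place were used. Promoter sequences came from RefSeq (GRCm38.p6) and gene sequences from NCBIM37, which is mm9. The rank and motif steps were tested on simulated data. Alternatives were the lowest entry per symbol, all active entries, pseudocounts, a threshold of 0.1 and other motif windows. An alternative counted as changed outside the 95% Wilson interval (percentiles), the order-statistic interval of the median, the rounding bounds (ratios of genes) or 1.5 times a count. Python 3.11.15, numpy 2.4.6, pandas 2.3.3, scipy 1.17.1 and matplotlib 3.10.9 were used.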

Additional observations from a re-analysis of the deposited data

How the results depend on the processing

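No difference had a replicate test, and leaving out a library was not possible with pooled values. No paired analysis was possible because the samples form 1 group and the table holds 1 pooled value per entry. The number of active clock genes (10, or 13 entries) held at an activity of at least 0.1, since the lowest value was 0.26. Of all symbols, 55.7% reached 0.1. The median of 0.655 (order-statistic interval 0.3 to 2.41) ranged from 0.655 to 1.11. This interval treats the 10 genes as a sample, which they are not. It is wide beside their range of 0.26 to 4.15, so a value inside it is no sign of stability. The ratio of this median to that of all active symbols, 0.753, was 0.784 with the lowest entry per symbol and 0.541 among activities of at least 0.1, but turned to 1.28 over all active entries, in which Clock counts 3 times, and to 1.22 and 1.32 with geometric means and pseudocounts of 0.01 and 0.001; the cause of the latter was not tested. The median percentile of 42.2 became 43.1 with the lowest entry per symbol, and 28.7 among activities of at least 0.1, which removes low genes by construction; percentiles of single genes changed by at most 17.1 points, that of Cry1 from 26.7 to 9.62. With 0.1 added to both activities the ratios became 3.27 (Per1 to Per2), 0.33 (Per2 to Per3), 0.86 (Cry1 to Cry2), 0.36 (Nr1d1 to Nr1d2) and 9.44 (Clock to Arntl), and with the lowest entry that of Per1 to Per2 became 3.77. With 0.1 added, all 5 ratios left their rounding bounds and so counted as changed, as did Per1 to Per2 with the lowest entry. None of these 5 ratios changed direction, and other ratios of genes were not recomputed. The number of genes with an E-box, 2, was 6 for CANNTG, which 74.99% of all genes hold, and 4 within 1 kb of the start, a window chosen after seeing the data.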
